A study of Mus musculus with 32 samples.

Results

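This account describes how the loss of RNA under actinomycin D differed between reprogramming cultures given CD3254 and cultures given DMSO as control. The measure is the log2 change from 0 h to 8 h in the CD3254 arm minus the same change in the DMSO arm, called the difference in decay, with the 4 h difference beside it. A positive value means that relatively more of an RNA was left with CD3254. Members were all genes and repeat families in the actinomycin D table that reached 1 CPM (reads scaled to a library total of 1000000) in at least 2 of its libraries: 17064 of 55401 genes listed, and 656 of 1146 repeat families. The table holds 12 of the 32 libraries in the series.

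The cells were OG2X129 mouse embryonic fibroblasts taken through chemical reprogramming, in which small molecules alone convert somatic cells toward induced pluripotent stem cells. The 6 groups are CD at 0, 4 and 8 h and DMSO at 0, 4 and 8 h of actinomycin D, with 2 libraries each. Every group shared the reprogramming medium, a serum and serum replacement medium with bFGF, vitamin C, AM580, Forskolin, EPZ004777, Parnate, 616452, VPA and CHIR99021. The arms therefore differ by CD3254 alone, on a background that already holds AM580, a retinoic acid receptor agonist. The labels name neither a day of reprogramming, a dose of CD3254 nor an age of the embryos, and they do not state whether replicates are separate cultures, so p-values measure only the spread between these libraries, which may be technical.

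Actinomycin D binds DNA and stops transcription, so that the RNA left after some hours reflects how stable each RNA was. Short-lived RNAs, such as those of immediate early transcription factors, disappear within that time, and long-lived RNAs gain share because everything is read relative to the surviving total. CD3254 is an agonist of retinoid X receptors, nuclear receptors that pair with the retinoic acid, vitamin D, thyroid hormone, PPAR and LXR receptors. The series title names Rxra, the RNA exosome and MMVL30, the mouse VL30 retroelement. The exosome is a complex of ring, cap and nuclease subunits that degrades RNA from the 3′ end.

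Recovered depth was 15382821 to 24186485 reads per library. ERCC spike-ins, synthetic RNAs of known amount, took 1267 to 2180 CPM, and mitochondrial genes took 4.81% to 9.13%. The labels do not say whether spike-ins were added per cell or per mass of RNA. The 2 CD libraries at 0 h agreed least (Pearson r = 0.967 across genes, which are not independent replicates, against 0.979 to 0.995 in the other groups). They enter every difference at 8 h and at 4 h. The first of them had the lowest spike-in level of the 12 libraries (1267 CPM, against 1849 in the second) and the greatest depth. Fits below without the second CD library at 0 h take this first library alone as the CD level at 0 h. Summed markers of fibroblasts (10904 to 24007 CPM) and of extraembryonic endoderm-like cells (10881 to 23205 CPM) were high in every library, as in mixed reprogramming cultures. The arms already differed at 0 h. Fibroblast markers then summed to 10904 to 12172 CPM in CD and 17366 to 17864 in DMSO. Endoderm-like markers summed to 18637 to 23205 and 14844 to 16226, and pluripotency markers to 1165.5 to 2307 and 369.8 to 689.9. In such bulk samples, fewer cells of a type and less RNA per cell cannot be told apart.

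Decay differed between the arms in very few RNAs that the test could single out. At 8 h, 1 gene of 17064 was higher and 0 were lower at an adjusted p under 0.05 (limma, 0.00586% of genes called higher), and among repeat families 4 of 656 were higher and 0 lower (0.61% called higher). At 4 h, 0 genes and 2 repeat families passed, the families both higher (0.305%). The gene was mt-Tl1, a mitochondrial transfer RNA. The families were the LINE-1 families L1Md_A and L1MEg, the DNA transposon FordPrefect and MTEb-int, the internal part of an LTR retroelement. Before actinomycin D, at 0 h, 1402 genes (8.22%) were higher and 1093 (6.41%) lower in CD than in DMSO, as were 23 families (3.51%) and 11 (1.68%). The median gene of the difference in decay stood at -0.02 on the log2 scale at 8 h and at -0.07 at 4 h. Scaling to the spike-ins moved these to -0.10 and -0.21.

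At an unadjusted p under 0.05, 1267 genes (7.42%) were higher and 672 (3.94%) lower at 8 h, and 441 (2.58%) were higher and 330 (1.93%) lower at 4 h. This split followed the scaling: 898 and 231 genes at 8 h when scaled to spike-ins, and 792 and 1324 relative to the median gene. At 4 h the same scalings gave 218 and 217, and 528 and 277. Below, a gene passed where limma on all 12 libraries called it, unless another fit is named. DESeq2 on the recovered reads called 53 genes at 8 h, 28 higher (0.26%) and 25 lower (0.232%), and 2 at 4 h. edgeR called 1 gene at each time, mt-Tl1. Without the second CD library at 0 h, limma called 440 genes at 8 h (349 higher, 2.05%, and 91 lower, 0.533%) and 20 at 4 h. Leaving out the first gave 1 and 0.

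**Figure D1:**
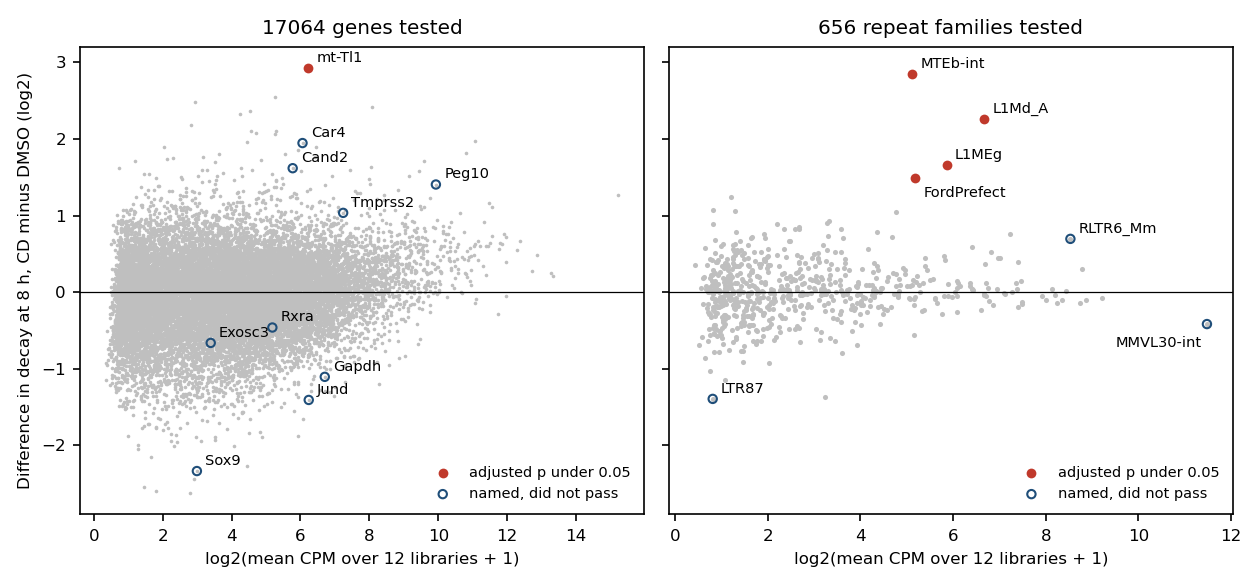
Difference in decay at 8 h (log2, CD minus DMSO, vertical axis) against mean level (log2 of CPM plus 1, horizontal axis) for 17064 genes and 656 repeat families; each point is 1 gene or family. Red points passed an adjusted p under 0.05 (mt-Tl1, L1MEg, L1Md_A, MTEb-int and FordPrefect), and open circles are named members that did not.

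mt-Tl1 is the mitochondrial transfer RNA for leucine that reads UUR codons. It lies on the mitochondrial chromosome at chrM:2676-2750 on the plus strand (GRCm38, GENCODE M21, ENSMUSG00000064340), a single exon directly between the large ribosomal RNA mt-Rnr2 and the complex I gene mt-Nd1. Its sequence is shown with that of mt-Tl2, the other leucine transfer RNA, whose difference was near 0, and of mt-Ty, the tyrosine transfer RNA with the second smallest p among mitochondrial transfer RNAs. The sequences are the plus and minus strand gene sequences of GENCODE M21, 5′ to 3′, and the capitals mark the anticodon.
mt-Tl1: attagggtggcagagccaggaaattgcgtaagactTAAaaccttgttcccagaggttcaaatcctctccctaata
mt-Tl2: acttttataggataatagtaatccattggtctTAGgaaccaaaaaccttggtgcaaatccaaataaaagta
mt-Ty: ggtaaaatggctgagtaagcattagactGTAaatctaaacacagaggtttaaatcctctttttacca
mt-Tl2 lies at chrM:11671-11741 on the plus strand and mt-Ty at chrM:5260-5326 on the minus strand. The sequences are 75, 71 and 67 bases long, with the anticodons at bases 36 to 38, 33 to 35 and 29 to 31.

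mt-Tl1 fell with DMSO, and after 8 h with CD3254 it stood near its starting level. In CD its level was 118 and 95.8 CPM at 0 h, 48.5 and 47.3 at 4 h, and 125 and 132 at 8 h. In DMSO it was 134 and 116 CPM at 0 h, 17.05 and 16.2 at 4 h, and 16.9 and 21.3 at 8 h. The arms overlapped at 0 h and were apart at 4 h and at 8 h, where both CD libraries stood far above both DMSO libraries. The share left at 8 h was 120% in CD and 15.2% in DMSO (91.5% and 12.6% when scaled to spike-ins). At 4 h the shares were 44.7% and 13.3%. The difference in decay was 2.92 ± 0.22 (SE, adjusted p = 0.000761, limma) at 8 h. At 4 h it was 1.70 ± 0.22 (adjusted p = 0.162). The DMSO arm fell by 2.66 on the log2 scale to 8 h (adjusted p = 5.69e-05), and the CD arm changed by 0.27 ± 0.15 (adjusted p = 0.16). Scaled to summed spike-ins the 8 h difference was 2.84 with an adjusted p of 0.104, so the call was lost while the value stayed. Leaving out each of the 12 libraries in turn kept the call in 12 of 12, with differences of 2.77 to 3.08. Its neighbours differed from it: mt-Rnr2 had 1.17 ± 0.52 and mt-Nd1 -0.29 ± 0.36, with adjusted p of 0.434 and 0.744.

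None of the other mitochondrial transfer RNAs passed in limma or edgeR on all libraries, and most had a difference of the same sign. DESeq2 also called mt-Ty, and limma without the second CD library at 0 h also called mt-Tp. Of all 22, mt-Tl1 included, 20 were tested and 16 had a positive difference at 8 h. With mt-Tl1 counted, the median was 0.81 on the log2 scale, against -0.02 for all genes tested. At an unadjusted p under 0.05, 8 were higher, mt-Tl1 among them, and 0 lower (all genes: 7.42% higher). This list was made after the value of mt-Tl1 was known. mt-Ty stood at 45.2 and 36.04 CPM at 0 h and at 34.3 and 39.3 at 8 h in CD. In DMSO it stood at 49.2 and 40.7 CPM at 0 h and at 13.7 and 18.3 at 8 h. Both 8 h CD libraries were above both 8 h DMSO libraries, and the 0 h ranges overlapped. The limma difference was 1.31 ± 0.27 (adjusted p = 0.292), and 0.97 at 4 h. DESeq2 gave 1.30 for mt-Ty (adjusted p = 0.00283). mt-Tl2, at 5.33 CPM at most, differed by -0.11 ± 0.53 (adjusted p = 0.939).

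The tyrosine gene closes a cluster of 5 neighbouring transfer RNAs between mt-Nd2 and mt-Co1. The differences at 8 h were 1.30 for mt-Tw (tryptophan), 0.82 for mt-Ta (alanine), 0.80 for mt-Tn (asparagine), 0.95 for mt-Tc (cysteine) and 1.31 for mt-Ty. The 5 were positive in the same fit, with unadjusted p from 0.00054 to 0.07. Alanine, asparagine, cysteine and tyrosine are encoded on the minus strand, and tryptophan on the plus strand. The labels do not say whether reads were counted by strand, so reads from the 2 strands cannot be told apart.

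Among messenger and ribosomal RNAs of mitochondria, 7 of 15 rose and 1 fell to 8 h in CD (13.2% and 41.3% of all genes), and 2 rose and 1 fell in DMSO (3.73% and 27.2%). Of the 15, 13 had a positive difference at 8 h, with a median of 0.73 (0.65 scaled to spike-ins), and 0 passed. mt-Co1 and mt-Co2 passed without the second CD library at 0 h (adjusted p of 0.0302 and 0.0311), as did mt-Tp (0.0352). mt-Co1, a subunit of cytochrome c oxidase, stood at 16158 and 24139 CPM at 0 h and at 49139 and 50773 CPM at 8 h in CD. The DMSO libraries held 29023 and 42530 CPM at 0 h and 41727 and 32574 CPM at 8 h. Both 0 h CD libraries were below both 0 h DMSO libraries, and both 8 h CD libraries were above every DMSO library at 0 and 8 h. Its difference was 1.27 ± 0.42 (adjusted p = 0.398). mt-Co2, another subunit, had 1.12 ± 0.24 (adjusted p = 0.292) at 8 h and 1.14 at 4 h. The proline transfer RNA mt-Tp was at 30.7 and 41.0 CPM at 0 h and 132 and 124 at 8 h in CD. Its DMSO levels were 77.6 and 125 CPM at 0 h and 140 and 126 at 8 h, and its difference was 1.39 ± 0.30 (adjusted p = 0.292). For mt-Co1 and mt-Tp both CD libraries were below both DMSO libraries at 0 h, whereas for mt-Tl1 and mt-Ty the arms overlapped at 0 h.

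**Figure D2:**
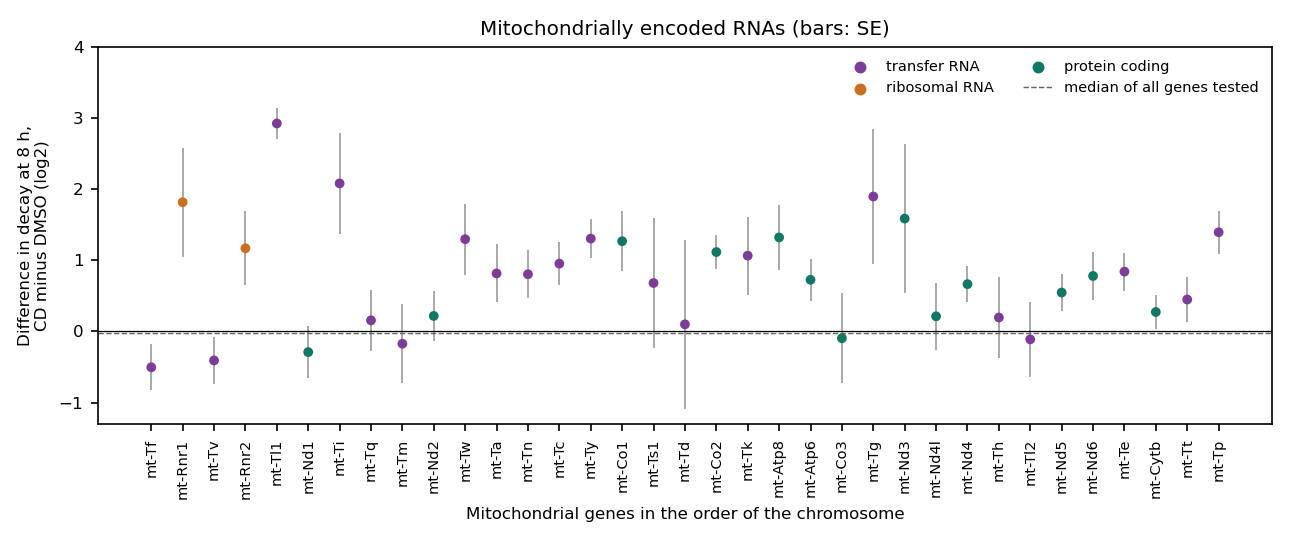
Difference in decay at 8 h (log2, CD minus DMSO; points, with bars for the SE) of the 35 mitochondrial genes tested, in the order of the chromosome. 29 of the 35 lie above 0, and mt-Tl1, at 2.92, is the one that passed; colours mark transfer RNAs, ribosomal RNAs and protein-coding genes, and the dashed line is the median of all genes tested.

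Among repeat families, the 4 that passed at 8 h ended higher with CD3254 but took different courses. L1MEg, an old LINE-1 family shared among mammals, stood at 70.0 and 63.4 CPM at 0 h, 76.7 and 71.5 at 4 h, and 75.7 and 75.0 at 8 h in CD. With DMSO the levels were 64.4 and 71.7 CPM at 0 h, 35.7 and 32.7 at 4 h, and 21.8 and 25.6 at 8 h. The arms overlapped at 0 h and were apart at both later times. DMSO kept 34.8% at 8 h and CD 113% (29.0% and 86.9% scaled to spike-ins). The difference was 1.66 ± 0.20 (adjusted p = 4.74e-06) at 8 h and 1.12 ± 0.20 (adjusted p = 0.00185) at 4 h, and it passed under limma, edgeR and DESeq2 at both times. Scaled to spike-ins, the 4 h value of 0.97 did not pass, while that at 8 h did (1.58, adjusted p = 0.00618).

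MTEb-int belongs to the MaLR retroelements. In CD it stood at 15.8 and 39.3 CPM at 0 h, 64.9 and 78.9 at 4 h, and 60.6 and 51.6 at 8 h. In DMSO it stood at 28.1 and 22.96 CPM at 0 h, 16.7 and 11.7 at 4 h, and 9.54 and 5.07 at 8 h. The CD arm rose (3.51% of families were called higher in CD, and 1.07% in DMSO) and the DMSO arm fell (23.3% were called lower in DMSO), with values of 1.13 ± 0.27 (adjusted p = 0.00258) and -1.72 ± 0.27 (adjusted p = 9.28e-05) at 8 h. The difference was 2.85 ± 0.38 (adjusted p = 1.27e-05) at 8 h and 2.29 ± 0.38 (adjusted p = 0.00145) at 4 h. The 2 CD libraries at 0 h differed by more than 2-fold, so that the 8 h difference was 2.22 without the first and 3.48 without the second. It passed in both cases.

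FordPrefect, a DNA transposon of the hAT group, first gained and then lost level. In CD it stood at 30.2 and 30.1 CPM at 0 h, 60.8 and 64.3 at 4 h, and 38.0 and 42.1 at 8 h. The DMSO libraries held 25.3 and 29.0 CPM at 0 h, 42.1 and 38.4 at 4 h, and 11.7 and 12.7 at 8 h. CD was above DMSO at each time, by little at 0 h and by over 3-fold between the means at 8 h. The difference was 1.48 ± 0.20 (adjusted p = 1.77e-05) at 8 h and 0.47 ± 0.20 (adjusted p = 0.718) at 4 h. From 4 h to 8 h, a value that does not use the 0 h levels, it was 1.01 ± 0.20 (adjusted p = 0.0129). The SE and p of that value come from the limma fit of all 12 libraries.

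L1Md_A is a young LINE-1 family of the mouse, with copies that can still be transcribed from their own promoters. It stood at 45.7 and 83.4 CPM at 0 h, 51.9 and 59.5 at 4 h, and 250 and 172 at 8 h in CD. With DMSO the levels were 94.9 and 122 CPM at 0 h, 77.5 and 107 at 4 h, and 82.3 and 67.1 at 8 h. CD was below DMSO at 0 h and 4 h and above it at 8 h. The CD arm rose by 1.73 ± 0.21 to 8 h (adjusted p = 4.2e-06) in the presence of actinomycin D. The DMSO arm changed by -0.53 ± 0.21 (adjusted p = 0.0672). The difference was 2.26 ± 0.30 (adjusted p = 1.27e-05) at 8 h and 0.09 ± 0.30 at 4 h, and from 4 h to 8 h it was 2.17 ± 0.30 (adjusted p = 7.29e-05). The other young LINE-1 family of like level, L1Md_T, had 0.76 ± 0.21 (adjusted p = 0.0962), and L1Md_F2 had 0.39 ± 0.19. These were looked up after the value of L1Md_A was seen.

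Calls in repeat families depended on the tool and on what they were adjusted with. L1Md_A and MTEb-int did not pass in edgeR (adjusted p of 0.0885 and 0.099). When genes and families were adjusted in 1 fit, L1MEg and FordPrefect remained, and none passed at 4 h. The 4 families passed at 8 h in 12 of 12 fits that left out 1 library. Families sum the reads of many copies, some of them inside genes, and which copies gave these reads is not known from the table.

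**Figure D3:**
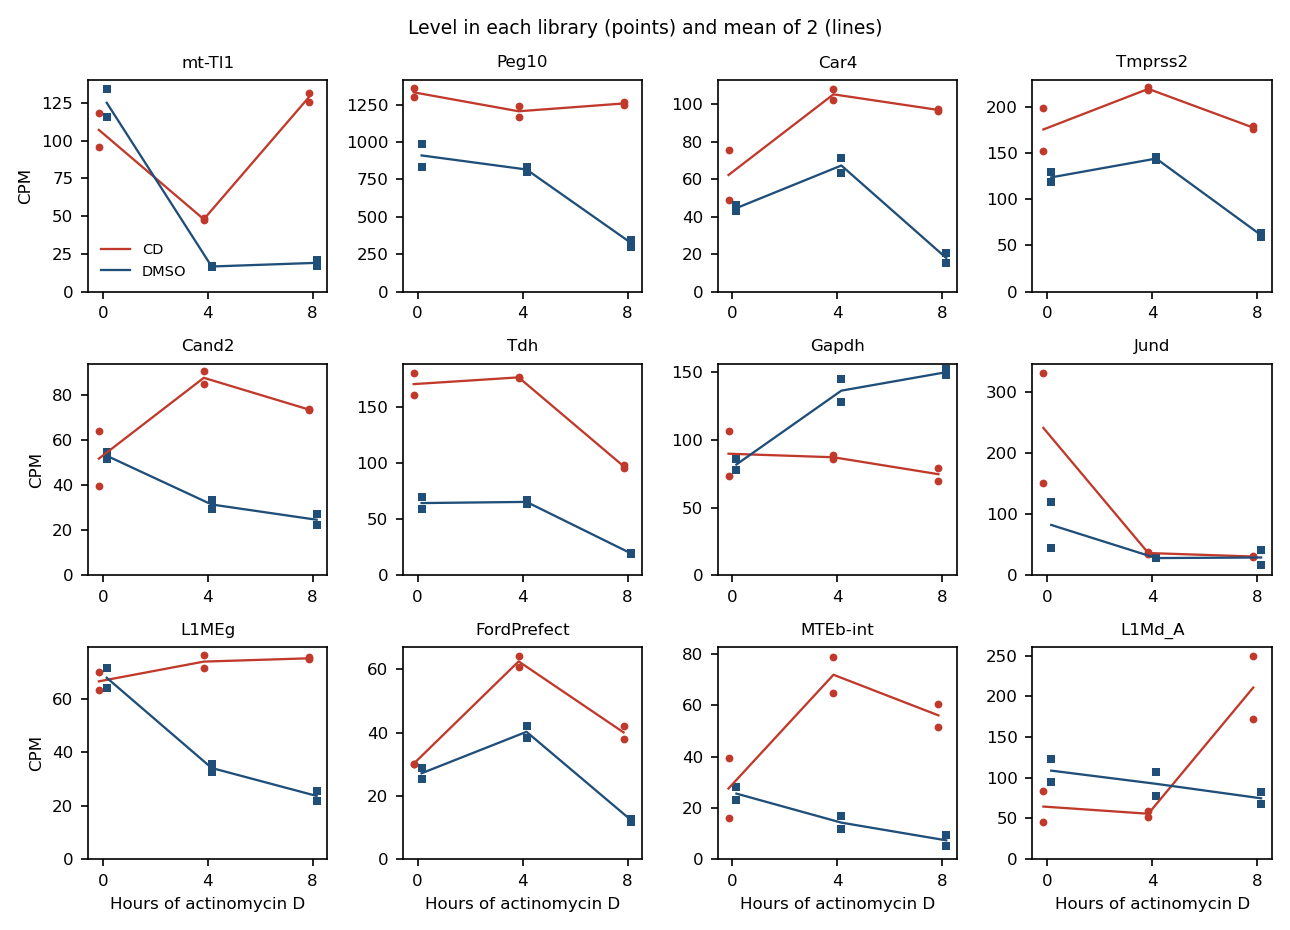
Level (CPM, vertical axis from 0) against hours of actinomycin D for 8 genes and 4 repeat families; points are single libraries and lines join the means of 2 (CD red circles, DMSO blue squares). mt-Tl1, Peg10, Car4, L1MEg and FordPrefect end at 8 h with both CD libraries above both DMSO libraries, and Gapdh ends with both below.

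VL30 did not pass the test, and its values carry a fault. MMVL30-int, the internal part of the element named in the series title, was listed in CD at 3374 and 3524 CPM at 0 h, 2800 and 2442 at 4 h, and 2110 and 1948 at 8 h. In DMSO it was listed at 3190 and 3226 CPM at 0 h, 2919 and 3706 at 4 h, and 2434 and 2613 at 8 h. As listed, CD was below DMSO at 4 h and at 8 h, with no overlap, and 58.8% was left in CD and 78.7% in DMSO at 8 h. The difference was -0.42 ± 0.20 at 8 h (unadjusted p = 0.048, adjusted p = 0.573) and -0.43 ± 0.20 at 4 h (adjusted p = 0.732).

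The 4 h and 8 h values of MMVL30-int appear to be exchanged in the deposited table. In each library every other value above 0 is a whole number of reads at that library's read step, within 0.001 of a read. For the most abundant RNAs that limit was wider, in proportion to their reads. The MMVL30-int values of the 8 later libraries are not, but each is whole at the step of the other later time of its own arm and replicate. With the values as listed, these libraries sum to between 998907 and 1001093 CPM, and after the exchange each sums to 1000000. With the exchange, 58.8% was left in CD and 78.7% in DMSO at 4 h, and 76.0% and 103% at 8 h. MMVL30-int then stood lowest at 4 h in both arms, and the difference in decay was -0.43 at 8 h, the listed 4 h value. The size of the difference between arms was thus nearly the same at both times, but the order of the times was not.

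The RLTR6 families of VL30 had differences of the opposite sign or near 0, and none passed. RLTR6_Mm stood at 188 and 248 CPM at 0 h, 232 and 229 at 4 h, and 446 and 490 at 8 h in CD. In DMSO it stood at 328 and 462 CPM at 0 h, 373 and 391.8 at 4 h, and 576 and 469 at 8 h. The arms were apart at 0 h and 4 h, with CD lower, and overlapped at 8 h. CD rose by 1.11 ± 0.16 to 8 h (adjusted p = 2.96e-05), and the difference was 0.69 ± 0.22 (adjusted p = 0.206). It passed when the second CD library or the first DMSO library at 0 h was left out, and was between 0.45 and 0.94 over all such fits. RLTR6-int had 0.53 ± 0.19 and RLTR6B_Mm 0.70 ± 0.29, neither passing. RLTR6C_Mm had 0.03 ± 0.28, and its sign changed with the scaling. None of these families shared the fault.

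**Figure D4:**
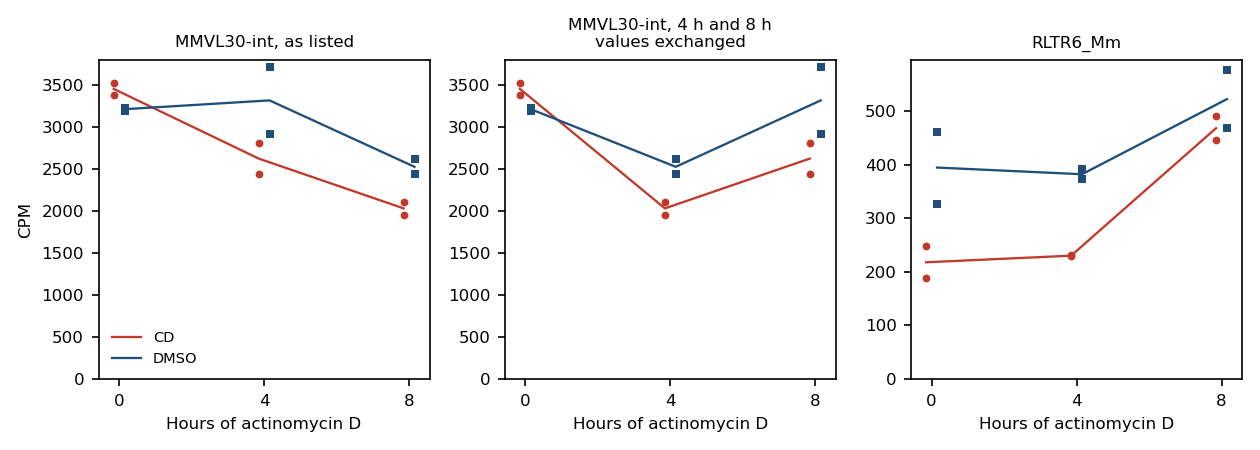
Level (CPM, vertical axis from 0) against hours of actinomycin D for MMVL30-int as listed, for MMVL30-int with its 4 h and 8 h values exchanged, and for RLTR6_Mm; points are libraries and lines join means of 2. As listed, MMVL30-int is lowest at 8 h in both arms; exchanged, it is lowest at 4 h; RLTR6_Mm is highest at 8 h in both.

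Several of the genes closest to passing on the higher side lost level in DMSO mainly between 4 h and 8 h, Peg10, Car4 and Tmprss2 among them, while Gm3379, with the smallest p of those not passing, and Cand2 were already lower in DMSO at 4 h. Peg10, an imprinted gene derived from a retrotransposon and needed in the placenta, lies on chromosome 6 at 4747306 to 4760517, plus strand. It stood at 1362 and 1303 CPM at 0 h, 1243 and 1169 at 4 h, and 1251 and 1266 at 8 h in CD. The DMSO libraries held 836 and 986 CPM at 0 h, 803 and 831 at 4 h, and 301 and 347 at 8 h. CD was above DMSO at all times, and the gap was widest at 8 h. DMSO kept 89.7% at 4 h and 35.6% at 8 h, and CD kept 90.5% and 94.4%. The difference was 1.41 ± 0.18 (adjusted p = 0.0644) at 8 h, 0.01 ± 0.18 at 4 h, and 1.40 ± 0.18 (adjusted p = 0.204) between 4 h and 8 h. At 8 h DESeq2 called Peg10 (1.36, adjusted p = 1.32e-06), and limma did without the second CD library at 0 h (1.37, adjusted p = 0.0135). edgeR did not (adjusted p = 0.326).

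Car4, a membrane carbonic anhydrase, also stood lowest in DMSO at 8 h. Its level in CD was 48.8 and 75.6 CPM at 0 h, 102 and 108 at 4 h, and 97.5 and 96.2 at 8 h. In DMSO it was 42.9 and 46.2 CPM at 0 h, 71.0 and 63.5 at 4 h, and 20.8 and 15.1 at 8 h. The libraries of the arms did not overlap at any time. The difference was 1.95 ± 0.29 (adjusted p = 0.117) at 8 h and 0.20 ± 0.29 at 4 h. Without the second CD library at 0 h it was 2.26 (adjusted p = 0.0132), and DESeq2 gave 1.87 (adjusted p = 0.00294). Tmprss2, a membrane serine protease of epithelia, stood at 179 and 175 CPM in CD and 58.8 and 63.2 in DMSO at 8 h, from 152 and 199 and from 118 and 129 at 0 h, a difference of 1.03 ± 0.19 (adjusted p = 0.292). Tdh, threonine dehydrogenase, which marks mouse pluripotent cells, had 0.88 ± 0.18 (adjusted p = 0.292) at 8 h and 0.02 ± 0.18 at 4 h. Cand2, a regulator of cullin ligases, instead parted by 4 h: its difference was 1.53 ± 0.28 then and 1.62 ± 0.28 at 8 h (adjusted p of 0.781 and 0.206). Ints6l, a relative of an Integrator subunit, had 1.32 ± 0.23 and Cd38, an NAD glycohydrolase, 1.62 ± 0.31 at 8 h, with adjusted p of 0.206 and 0.292. Gm3379, Rpl10-ps3 and Gm9493 had 2.48, 2.104 and 1.90, with adjusted p of 0.064, 0.117 and 0.193. The same 2 fits called Tmprss2, Cand2, Ints6l, Cd38, Rpl10-ps3 and Gm9493, with adjusted p from 0.0132 to 0.0302 without that library and from 0.00291 to 0.0349 in DESeq2. Gm3379 and Tdh passed without that library (adjusted p of 0.0135 and 0.0311) and not in DESeq2, which gave Gm3379 no adjusted p. Gm3379 and Gm9493 are annotated as processed pseudogenes. Rpl10-ps3 is by its name a pseudogene copy of a ribosomal protein gene, though annotated as protein coding. Reads shared with a parent gene make such values uncertain.

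On the lower side limma and edgeR on all libraries called no gene (672 were lower at an unadjusted p under 0.05 in limma), and DESeq2 called 25. The smallest limma p-values belonged to genes whose DMSO level did not fall beyond the spread to 8 h. Gapdh, the glycolytic enzyme often used as a reference RNA, stood in CD at 73.1 and 107 CPM at 0 h, 88.7 and 85.7 at 4 h, and 79.6 and 69.9 at 8 h. With DMSO the levels were 86.1 and 77.7 CPM at 0 h, 128 and 145 at 4 h, and 148 and 152 at 8 h. The arms overlapped at 0 h, and both later times had CD below DMSO. DMSO rose by 0.87 ± 0.17 (adjusted p = 0.00801) to 8 h and CD changed by -0.24 ± 0.17 (adjusted p = 0.245). The difference was -1.11 ± 0.24 (adjusted p = 0.292). DESeq2 called Gapdh (-1.21, adjusted p = 0.0177), and limma did without the second CD library at 0 h (-0.84, adjusted p = 0.0433). Trir, a ribonuclease that interacts with telomerase RNA, had -0.98 ± 0.22, and Gemin7, of the SMN complex that assembles spliceosomal particles, had -0.96 ± 0.23. Chst2, a sulfotransferase, had -1.08 ± 0.26, Rps4l -0.81 ± 0.20 and Tpbgl -1.58 ± 0.39, with adjusted p from 0.313 to 0.325 for these 5. Rps4l is annotated as a transcribed processed pseudogene, so reads shared with a parent gene make its value uncertain. DESeq2 called all 5 (adjusted p from 0.00462 to 0.00872), and limma called Chst2 without the second CD library at 0 h (0.0473). Gm19810 (-2.62 ± 0.41, adjusted p = 0.15) was at 0.467 and 1.26 CPM at 0 h and 17.3 and 19.6 at 8 h in DMSO, and at most 1.104 CPM in CD. Gm10269, Gm4950 and Gm6055 had -2.15, -1.80 and -1.40, each from low levels. Like Gm19810 they are annotated as processed pseudogenes, so reads shared with a parent gene make the values uncertain. These 4 passed in limma without the second CD library at 0 h (adjusted p from 0.0302 to 0.0412), Gm10269 also without the second DMSO library at 0 h, and had no adjusted p in DESeq2. At such levels the sizes depend on the method: edgeR, without the added 1 CPM, gave -1.22 for Gm19810, -3.47 for Gm10269 and -2.43 for Gm4950.

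Rxra, the receptor named in the title, and Exosc3, a cap subunit of the exosome, did not differ in decay beyond the spread. Rxra stood at 73.7 and 52.4 CPM at 0 h and 26.5 and 28.1 at 8 h in CD. In DMSO it stood at 59.6 and 35.1 CPM at 0 h and 21.9 and 35.4 at 8 h. The arms overlapped at both times, and the difference was -0.46 ± 0.38 (adjusted p = 0.613) at 8 h and -0.36 ± 0.38 at 4 h. Exosc3 stood at 41.1 and 14.3 CPM at 0 h and 4.73 and 4.59 at 8 h in CD. The DMSO libraries held 14.9 and 7.001 CPM at 0 h and 2.04 and 4.23 at 8 h. Both arms fell to 8 h (adjusted p of 0.0039 in CD and 0.0333 in DMSO), with 16.8% left in CD and 28.6% in DMSO. The difference was -0.67 ± 0.66 (adjusted p = 0.677), and 0.06 without the first CD library at 0 h.

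Of the 12 exosome core genes, 11 had a negative difference at 8 h and 0 passed at either p (all genes: 3.94% lower unadjusted). Their median was -0.51, and -0.21 without the first CD library at 0 h. Before actinomycin D their median difference in level was 0.79 (log2, CD minus DMSO), against 0.19 for all genes. Exosc6 and Exosc4, ring subunits, had differences in decay of -1.26 ± 0.61 and -1.11 ± 0.55 at 8 h (adjusted p of 0.451 and 0.458). All 12 fell in CD and 5 in DMSO (41.3% and 27.2% of all genes called lower). Among 20 exosome cofactors the median was -0.05, and Zfc3h1, which links the nuclear exosome to polyadenylated transcripts, had 0.63 ± 0.18 (adjusted p = 0.391). Among 47 deadenylation, decapping and 5′ decay factors the median was -0.01, with Rc3h2 (Roquin-2; it passed without the second CD library at 0 h, at an adjusted p of 0.0311) at 0.98 ± 0.26 and Cnot7, a deadenylase, at 0.70 ± 0.25 (adjusted p of 0.362 and 0.398). Gas5, a snoRNA host RNA that nonsense-mediated decay removes, kept 61.9% in CD and 35.4% in DMSO at 8 h, a difference of 0.77 ± 0.24 (adjusted p = 0.398).

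The immediate early and other short-lived mRNAs had the most negative median of the lists with at least 10 members tested, and it rested on 1 library. Of 52 tested, 44 were negative (all genes: 8816 of 17064), with a median of -0.62 at 8 h and -0.91 at 4 h. 0 passed, and 0 were higher and 1 lower at an unadjusted p under 0.05 (all genes: 7.42% and 3.94%). Without the first CD library at 0 h the median was 0.11, and without the second it was -1.22. Before actinomycin D the median difference in level of this list was 1.35 (log2, CD minus DMSO), against 0.19 for all genes. Jund, an AP-1 subunit, stood at 330 and 151 CPM at 0 h and 31.7 and 29.8 at 8 h in CD. With DMSO the levels were 120 and 44.5 CPM at 0 h and 17.6 and 40.7 at 8 h. The first library was far above the second at 0 h in each arm, while the 8 h values overlapped between arms, and the difference was -1.41 ± 0.67 (adjusted p = 0.448). Gadd45a, a stress response gene, had -1.15 ± 0.49 (adjusted p = 0.423), and Sox9, a transcription factor that responds to Wnt signals, had -2.34 ± 0.85 (adjusted p = 0.398). Sox9 was at 51.3 and 11.4 CPM in the 0 h CD libraries.

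Lists of Wnt response genes (22 tested, median -0.41) and cell cycle genes (38, median -0.28) had no member that passed (Sox9 did without the second CD library at 0 h, at an adjusted p of 0.0354), and without the first CD library at 0 h their medians were near 0 and 0.04. The 25 cholesterol synthesis genes had a median of -0.32, 22 of them negative, and it was between -0.62 and -0.17 in the fits that left out 1 library. At 0 h the median differences in level (log2, CD minus DMSO) were 0.96 for Wnt response, 0.90 for cell cycle and -0.13 for cholesterol synthesis genes.

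Imprinted genes and nuclear noncoding RNAs had positive medians at 8 h and medians near 0 at 4 h. None passed in limma on all libraries. DESeq2 called Peg10. Without the second CD library at 0 h, the fit that called the most genes, limma called members of both lists, Peg10, Dlk1, Rian and Xist among them. Of 31 imprinted genes, 22 were positive, 9 were higher and 1 lower at an unadjusted p under 0.05 (all genes: 7.42% and 3.94%), and the median was 0.39 (-0.05 at 4 h; 0.20 at 8 h without the first CD library at 0 h). Dlk1, a Notch-like ligand, stood at 21.95 and 38.7 CPM at 0 h and 50.2 and 53.004 at 8 h in CD. The DMSO libraries held 27.1 and 29.5 CPM at 0 h and 21.8 and 15.9 at 8 h. The arms overlapped at 0 h and were apart at 8 h, a difference of 1.38 ± 0.33 (adjusted p = 0.325). Of 17 structured and nuclear-retained noncoding RNAs, 16 were positive and 6 were higher at an unadjusted p (all genes: 7.42%), with a median of 0.63 (-0.01 at 4 h; 0.30 at 8 h without the first CD library at 0 h). Rian, a noncoding RNA of the Dlk1 domain that both lists hold, stood at 459 and 472 CPM in CD and 172 and 135 in DMSO at 8 h, from 257 and 437 and from 211 and 330 at 0 h. Its difference was 1.26 ± 0.35 (adjusted p = 0.391). Xist, the RNA that coats the inactive X chromosome, had 0.99 ± 0.27 (adjusted p = 0.377).

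No member of the cell identity lists passed in limma on all libraries, edgeR or DESeq2. The fit without the second CD library at 0 h called the most genes of all fits at 8 h. It called some XEN-like, epithelial and fibroblast genes and RXR partner targets higher. Of the pluripotency genes it called Tdh higher and Utf1 lower. XEN-like endoderm genes had a median of 0.29 at 8 h, with 7 of 28 higher at an unadjusted p (all genes: 7.42%). The median was -0.01 without the second CD library at 0 h. Of the 28, 17 were positive and 11 negative, from -0.74 to 1.12. Cubn and Lrp2, endocytic receptors of visceral endoderm, had 0.94 ± 0.21 and 0.70 ± 0.21 (adjusted p of 0.301 and 0.392). The 27 epithelial genes tested had a median of 0.04, and that median was -0.33 without the second CD library at 0 h. Of these, 14 were positive and 13 negative, from -1.67 to 0.84. Esrp1, a splicing regulator, had the highest value (0.84 ± 0.24). Fibroblast genes had a median of 0.28, with 12 of 40 higher and 1 lower at an unadjusted p (all genes: 7.42% and 3.94%), and the median was 0.12 without the first CD library at 0 h and 0.43 without the second. Thbs1, a matrix glycoprotein, had 0.65 ± 0.15 (adjusted p = 0.313), and Acta2, smooth muscle actin, 0.78 ± 0.21 (adjusted p = 0.369). Targets of RXR partner receptors had a median near 0, with 17 of 34 positive and 17 negative. Cd36, a fatty acid transporter and PPAR target, had 1.32 ± 0.48, and Srebf1, an LXR target, -0.62 ± 0.27 (adjusted p of 0.398 and 0.428).

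Macrophage markers and ribosomal protein genes had positive medians at 8 h and median differences of -0.72 and -0.29 (log2, CD minus DMSO) at 0 h. The 13 macrophage markers tested of 15 were all positive at 8 h, and 0 passed. Lyz2, Mrc1 and C1qb did without the second CD library at 0 h, the fit that called the most genes. The median of the markers was 0.60 (0.39 without the first CD library at 0 h). Their summed level was 170 to 270 CPM in CD and 387 to 542 in DMSO at 0 h, and 611 to 643 in CD and 559 to 718 in DMSO at 8 h. Lyz2, lysozyme, gave most of that sum, and Cx3cr1 was at or near 0 in every library. Mrc1, the mannose receptor, had 1.41 ± 0.32 (adjusted p = 0.298). Inflammatory mediators had a median of 0.24 (0.13 without the first CD library at 0 h) and 6 of 30 higher at an unadjusted p (all genes: 7.42%). Ccl8, a chemokine, had 0.65 ± 0.20 and Icam1, an adhesion molecule, 0.58 ± 0.21 (adjusted p of 0.398 for each), and Ccl8 passed without the second CD library at 0 h (0.0200). The part of macrophages in these values was not tested. The 37 interferon-stimulated genes tested had a median of 0.27, with 7 higher at an unadjusted p (all genes: 7.42%).

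The 56 cytosolic ribosomal protein genes had a median of 0.34, with 50 positive and 14 higher at an unadjusted p (all genes: 7.42%). That median was 0.02 without the first CD library at 0 h and 0.69 without the second. The latter fit called the most genes, Rps27 among them. Rps27 stood at 291 and 475 CPM at 0 h and 928 and 1037 at 8 h in CD. With DMSO the levels were 533 and 769 CPM at 0 h and 651 and 482 at 8 h. CD was below DMSO at 0 h and above it at 8 h, with no overlap at either time, and the difference was 1.59 ± 0.34 (adjusted p = 0.292).

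**Figure D5:**
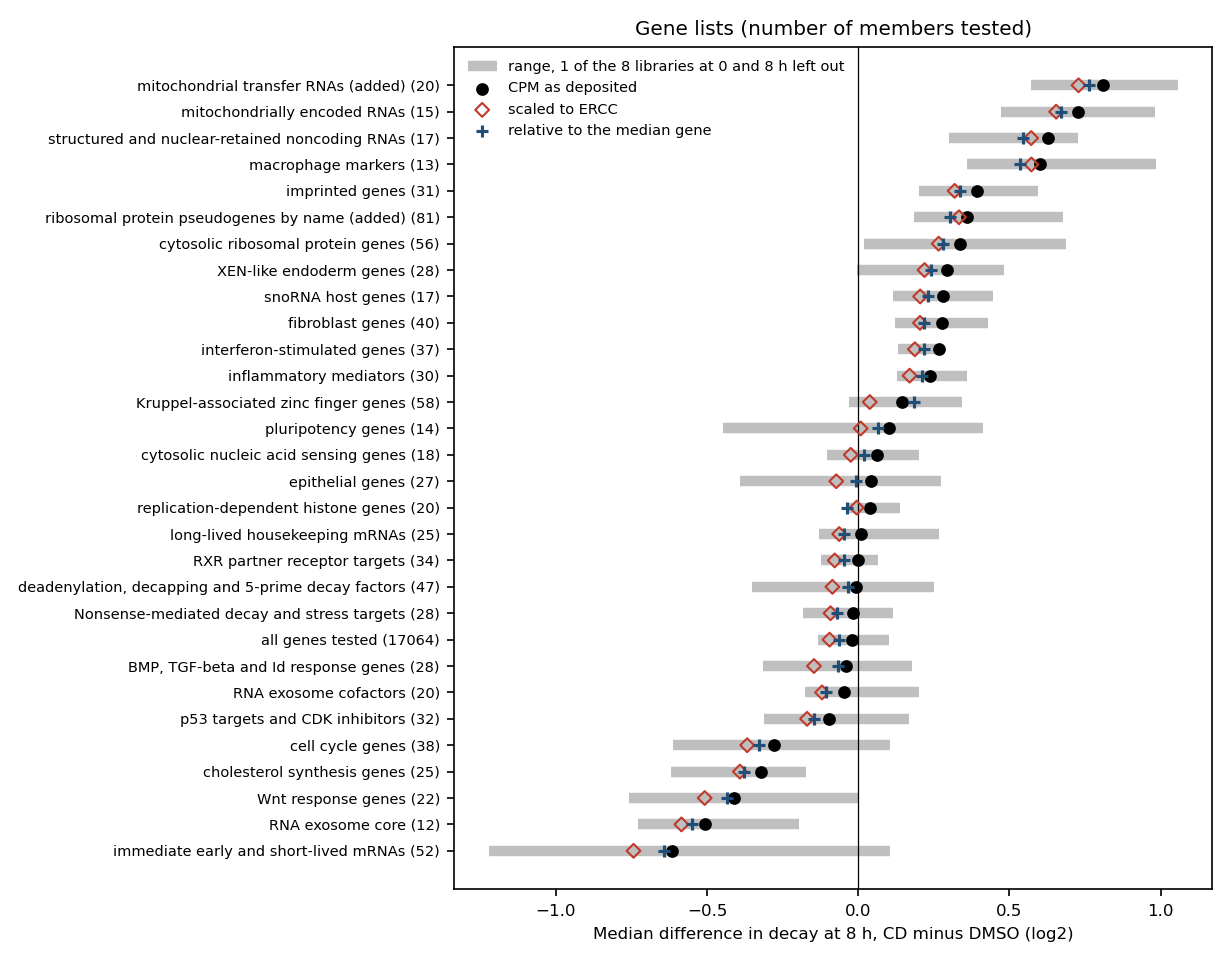
Median difference in decay at 8 h (log2, CD minus DMSO, horizontal axis) of each gene list with at least 10 members tested (number in brackets) and of all genes tested; black circles are CPM as deposited, red diamonds are scaled to spike-ins, blue crosses are relative to the median gene, and grey bars are the range when 1 of the 8 libraries at 0 and 8 h is left out. The grey bar of the immediate early list runs from -1.22 to 0.11, and that of the mitochondrial transfer RNAs from 0.57 to 1.06.

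Repeat families as a whole had medians near 0. All 656 families had a median difference of 0.01 at 8 h and -0.13 at 4 h, with 38 higher (5.79%) and 19 lower (2.9%) at an unadjusted p at 8 h, and 8 (1.22%) and 32 (4.88%) at 4 h. LINE-1 families had 8 of 105 higher and 0 lower, with a median of 0.04. The 12 B1 families, short repeats that are mostly read within genes, had a median of -0.02, and all 12 fell in each arm (30.8% of families called lower in CD, 23.3% in DMSO). The 17 IAP families had a median of 0.17, and IAPEz-int, the most abundant of them, had 0.31 ± 0.18 (adjusted p = 0.76). On the lower side LTR87 had -1.40 ± 0.36 (adjusted p = 0.0867), from 1.98 and 1.78 CPM at 0 h in CD, and it passed when scaled to spike-ins (-1.47, adjusted p = 0.0334). At 4 h that scaling gave 1 higher and 4 lower families in place of 2 and 0.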

How the data were processed

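RNA-seq of 12 libraries in 6 groups of 2 was analysed from 1 deposited table whose header names no unit. The values are a coverage signal deposited by the authors that sums to about 1000000 per library, read here as CPM. Whole reads were recovered from the steps of the table for 99.996% to 100% of values above 0, which gives the depth. The tolerance was 0.001 of a read, and wider in proportion to reads for the most abundant RNAs. fastp 0.20.1, HISAT2 2.1.0 and StringTie 2.0 with mm10 stand in the submitters' processing notes; no source gives their options, the counting or the strand setting.

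Genes and repeat families with at least 1 CPM in at least 2 libraries were each fitted with limma 3.58.1 (R 4.3.3) on log2(CPM + 1), on which the changes of low genes shrink and their differences between arms depend on the added 1, over all 12 libraries with 6 residual degrees of freedom. Tests were 2-sided, with Benjamini-Hochberg adjustment and a threshold of 0.05. The 8 h and 4 h differences share the 0 h libraries. 260 genes without a symbol were kept by identifier, and 1146 repeated listings of the families were dropped. Alternatives were scaling to spike-ins, to the median gene or by quantiles, other pseudocounts and filters, edgeR 4.0.16 and DESeq2 1.42.0 on recovered reads, a replicate block, and each library left out. Methods were tested on simulated data.

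Named were Rxra, Exosc3, MMVL30-int and the RLTR6 families; the 10 genes per direction at 8 h and 3 at 4 h, and 4 families per direction, that passed or had the smallest p; and up to 2 members per list with the smallest p. Genes needed 5 CPM in the highest group and families 1. Some were left out for length. Members and the 32 gene lists were chosen with earlier results of these data known. mt-Nd1, mt-Rnr2, mt-Tl2 and the tyrosine cluster were added after values were seen. Gene positions and sequences are from GENCODE M21.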

Additional observations from a re-analysis of the deposited data

Results flagged for a closer look

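For 5 features the effect of actinomycin D differed between the CD and DMSO arms by the limma test of that difference, adjusted over all genes or all families. At 8 h these were mt-Tl1 (2.92, adjusted p = 0.000761), FordPrefect (1.48, adjusted p = 1.77e-05), L1Md_A (2.26, adjusted p = 1.27e-05), L1MEg (1.66, adjusted p = 4.74e-06) and MTEb-int (2.85, adjusted p = 1.27e-05), all on the log2 scale. At 4 h they were L1MEg (1.12, adjusted p = 0.00185) and MTEb-int (2.29, adjusted p = 0.00145), from the same 0 h libraries. The groups of 2 libraries were too small to look for single libraries that stand apart.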

How the results depend on the processing

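For genes at 8 h (1 as reported), scaling to spike-ins by sum or by median ratio gave 0, limma without the trend gave 2, DESeq2 gave 53, and leaving out 1 library gave 1 to 440 (440 without the second CD library at 0 h). For genes at 4 h (0 as reported), the scaling to the median gene and edgeR gave 1 each, DESeq2 gave 2, and leaving out 1 library gave 0 to 20. For repeat families at 8 h (4), edgeR and the joint adjustment with genes gave 2 each, and leaving out 1 library gave 4 to 7 (7 without the second CD or first DMSO library at 0 h, or the second DMSO library at 8 h). For families at 4 h (2), both spike-in scalings gave 5, quantile normalization and edgeR gave 1 each, limma without the trend and the joint adjustment gave 0, and leaving out 1 library gave 2 to 5 (5 without the first DMSO library at 4 h). A lone library left in a group is assumed to vary like the other groups. With the replicate number as a block, a shift common to all groups, the 4 counts were 1, 0, 4 and 2, so that block changed none. Such a block cannot follow deviations that differ in direction between groups, so it does not settle whether pairing matters. Deviations of same-numbered libraries correlated at -0.69 to 0.54 over 15 pairs of groups, 4 of them over 0.1, the highest between CD and DMSO at 0 h. Since not all were over 0.1, the numbers were not taken as pairs. Exchanging the MMVL30-int values, an alternative added after the data were seen, left 4 and 2. Of 886 values recomputed for 35 named features, 832 kept their direction and side of the threshold, 39 gained a call, 6 lost one and 9 moved, 8 of these RLTR6C_Mm. With 2 libraries a group and 6 residual degrees of freedom, small differences could not be told from the spread.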
